A study of Homo sapiens with 12 samples.

Results

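The genes described here are IGFBP2, IGFBP3, IGFBP4, IGFBP5, IGFBP6 and IGFBP7, the insulin-like growth factor binding proteins (IGFBPs) whose Ensembl identifiers map to these symbols in GENCODE release 29. All 6 are among the 25141 genes of the deposited count table. Of these, 5 had enough counts to be tested, with 12542 genes tested in all, and IGFBP5 did not. IGFBPs are secreted proteins that bind the insulin-like growth factors IGF1 and IGF2 in the space around cells. They prolong the life of the ligands and limit their access to the receptor IGF1R, a tyrosine kinase that signals through the IRS adaptors to PI3K and AKT, and proteases that cut an IGFBP set the ligand free. IGFBP7 binds IGFs with lower affinity than the others and is also known as a matrix-associated protein, and osteoblast-lineage cells are known to secrete several members of the family.

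RNA was measured in HOS, an established human osteosarcoma line, in 4 groups of 3 libraries. The upCIN85 group was a pool of cells that survived geneticin after transfection with a plasmid in which a CMV promoter drives the full-length form of the adaptor protein CIN85. The Mock group was transfected with the empty vector and taken through the same selection. The siCIN85 cells were given several CIN85 siRNAs as a mixture and the siNeg cells a non-targeting siRNA, and nothing in the sources used here says that these cells carried a vector. The study's methods describe a pool of resistant cells and no clones, and the labels do not say whether replicates were separate cultures, so p-values measure only the spread between these libraries, which may be technical.

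Libraries were read at the 3′ end of transcripts, so a count does not scale with the length of the transcript, and levels are given as CPM (counts relative to the TMM-scaled size of the library). Total counts per library were 5334731 to 5774968 in Mock, 5726535 to 6049458 in upCIN85, 4011368 to 4174860 in siNeg and 3540641 to 3991517 in siCIN85. At these depths 3 counts correspond to 0.490 to 0.868 CPM. SH3KBP1, the gene of CIN85, was at 85.1 ± 2.37 CPM in siNeg and 7.54 ± 3.19 in siCIN85 (mean ± SD, n = 3). It was at 77.5 ± 5.0 CPM in Mock and 81.3 ± 9.61 in the libraries labelled upCIN85, with a log2FC of 0.07 (SE 0.16, adjusted P = 0.887, edgeR's quasi-likelihood test). Whether the plasmid transcript ends in the 3′ sequence of the gene is not given in the sources used here, so this count does not check that label. By the study's methods, CIN85 protein in the resistant pool was examined by western blotting. The study reports that the full-length protein was overexpressed in these cells, with the blots quantified by densitometry. Of 8 bone and mesenchymal markers, 7 were in the table and 6 had at least 10 counts in every library. ALPL was the exception. Of 8 markers of other cell types, PTPRC, CD3E and MYOD1, which mark blood and muscle cells, had at most 5 counts in every library. The blood marker CD68 had 0 to 15 counts, and the endothelial genes PECAM1 and CDH5 had 0 to 6 and 2 to 36 counts. The epithelial genes EPCAM and CDH1 were counted in every library at 24.6 to 61.2 CPM and 12.8 to 34.2 CPM.

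The members lie on 5 chromosomes (positions on GRCh38, GENCODE release 29). IGFBP2 (ENSG00000115457) spans 216632828 to 216664436 on the plus strand of chromosome 2, and IGFBP5 (ENSG00000115461) spans 216672105 to 216695525 on the minus strand, so that the pair stands tail to tail with a gap of 7668 bases. IGFBP3 (ENSG00000146674) lies on chromosome 7 from 45912245 to 45921874, minus strand. IGFBP4 (ENSG00000141753) lies on chromosome 17 from 40443461 to 40457731, plus strand. IGFBP6 (ENSG00000167779) lies on chromosome 12 from 53097436 to 53102345, plus strand. IGFBP7 (ENSG00000163453) lies on chromosome 4 from 57030773 to 57110385, minus strand. Their principal transcripts have 4 exons, except IGFBP3 and IGFBP7 with 5.

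IGFBP7 shares its 3′ end with another gene. Its last exon, 564 bases from 57030773 to 57031336, contains the whole last exon of POLR2B, 270 bases from 57030899 to 57031168 on the plus strand. POLR2B encodes a core subunit of RNA polymerase II. The kit keeps the strand of the RNA, but whether counting used the strand is not given in the sources used here. Whether reads of IGFBP7 and POLR2B in these bases were told apart is thus not known. The counts of both genes are uncertain to that extent. POLR2B is named for its position, after its values were seen. IGFBP7-AS1, an antisense transcript at the other end of IGFBP7, had at most 1 count in any library.

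The promoter windows of IGFBP2 and IGFBP4 are shown because both genes are well counted and their levels in upCIN85 and Mock stood in contrast. Each is 250 bases on the plus strand before the start of the gene in RefSeq on GRCh38.p14, where 5 of the 6 members were matched and IGFBP7 was not. Capitals mark matches on either strand to the letters GGGCGG, the core of a so-called GC box, and to TATAAA, the core of a TATA box.
IGFBP2, chr2:216633170-216633419: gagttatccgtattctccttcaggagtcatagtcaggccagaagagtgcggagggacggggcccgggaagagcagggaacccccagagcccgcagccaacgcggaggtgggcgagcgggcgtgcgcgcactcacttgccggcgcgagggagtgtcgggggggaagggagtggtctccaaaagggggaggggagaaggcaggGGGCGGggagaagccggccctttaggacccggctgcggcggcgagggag
IGFBP4, chr17:40443200-40443449: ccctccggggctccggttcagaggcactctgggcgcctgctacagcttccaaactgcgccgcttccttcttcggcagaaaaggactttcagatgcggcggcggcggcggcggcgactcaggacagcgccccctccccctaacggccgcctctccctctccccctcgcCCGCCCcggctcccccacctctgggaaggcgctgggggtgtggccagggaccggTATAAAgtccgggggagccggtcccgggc
The IGFBP2 window holds 1 GC box, 49 bases before the start, and no TATAAA on either strand, and its last 25 bases lie in the first exon of the principal GENCODE transcript. The IGFBP4 window holds 1 GC box on the other strand, 83 bases before the start, and 1 TATAAA at 29 bases. The matches did not overlap each other. Searched on both strands, TATAAA occurred in 10.7% and GGGCGG in 42.6% of the 35116 RefSeq windows of this length. The letters TGANTCA (an AP-1 site) were in neither window and in 6.57% of all windows. The G and C content was 69.2% for IGFBP2 and 71.6% for IGFBP4, against a median of 58.0% for all windows. These are descriptions of letters, and no binding was measured.

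In the Mock cells the members differed widely in level. IGFBP2 was highest at 150.2 ± 20.7 CPM, followed by IGFBP7 at 112 ± 9.76 CPM, IGFBP4 at 37.4 ± 4.75 CPM, IGFBP6 at 23.9 ± 7.41 CPM, IGFBP3 at 9.28 ± 0.499 CPM and IGFBP5 at 0.715 ± 0.210 CPM (mean ± SD, n = 3). The libraries of neighbouring members in this order did not overlap within Mock. IGFBP2 took 42.4 to 47.7% of the summed CPM of the 6 genes in Mock, and IGFBP7 30.7 to 38.6%. The order was kept in siNeg by the means and within each library. Across the siNeg libraries the ranges of IGFBP2 and IGFBP7 overlapped, and so did those of IGFBP4 and IGFBP6.

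**Figure D1:**
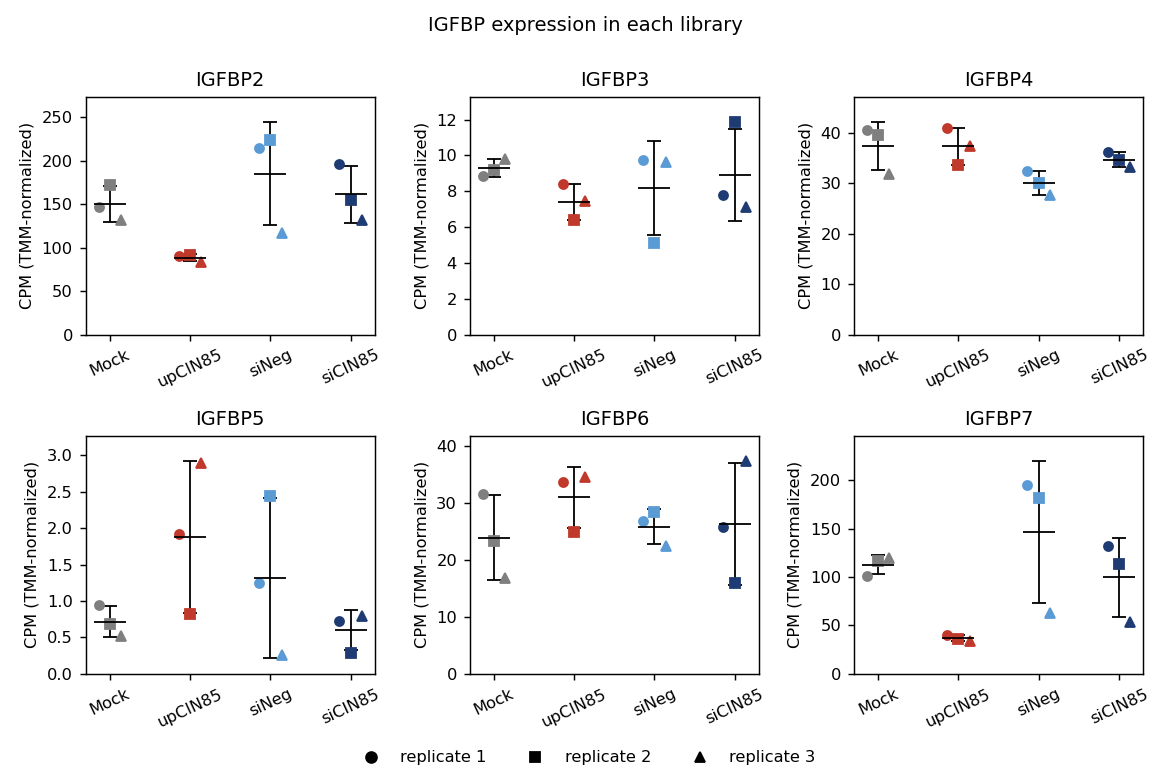
CPM (TMM-normalized, vertical axis from 0) of each of the 6 IGFBP genes in the 12 libraries, by group, with the symbol giving the replicate number and the black bars the mean ± SD of 3 libraries. The upCIN85 libraries lie below every Mock library for IGFBP2, IGFBP3 and IGFBP7, and siNeg replicate 3 lies far below the other siNeg libraries for IGFBP2 and IGFBP7.

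The first comparison asked how the members differed between cells selected for the CIN85 plasmid and cells selected for the empty vector. IGFBP7 was the 1 member that fell past the test, and IGFBP4 was at about the same level in both groups. Of the 5 members tested, 1 was called, against 1.23% of all genes tested (154 of 12542), and the share called in the lower direction was 0.789%. The libraries of upCIN85 and Mock did not overlap for 3 members, IGFBP2, IGFBP3 and IGFBP7, each lower in upCIN85, against 11% of all genes tested that were lower without overlap. The median log2FC of the 5 members was -0.32, and that of all genes tested was 0.0072.

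IGFBP7 was at 101 CPM, 116 CPM and 119.8 CPM in Mock replicates 1, 2 and 3, and at 40.0 CPM, 35.6 CPM and 34.3 CPM in upCIN85 replicates 1, 2 and 3. Every upCIN85 library was below every Mock library, and the spread within each group was small beside the gap. The means were 112 ± 9.76 CPM and 36.7 ± 2.99 CPM, 3.07-fold lower in upCIN85, with a log2FC of -1.62 (SE 0.33, 95% confidence interval -2.31 to -0.93, adjusted P = 0.0227, edgeR). IGFBP7 stood at place 67 from the lowest log2FC among the 12542 genes. With 3 libraries in each group, the smallest two-sided p of an exact permutation test is 0.1. In bulk RNA, fewer cells with a transcript and less transcript per cell cannot be told apart.

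The call for IGFBP7 was kept in 2 of the 6 fits without a single library, while the size of the change moved little. Those were the fits without Mock replicate 1 (adjusted P = 0.0446) and without upCIN85 replicate 2 (adjusted P = 0.0445, edgeR). With each of the 6 libraries of the comparison left out in turn the log2FC stayed between -1.69 and -1.57, but the adjusted P (edgeR) was 0.0911 when Mock replicate 2 was omitted and 0.0885 when Mock replicate 3 was. It was 0.0653 on omitting upCIN85 replicate 1 and 0.138 on omitting upCIN85 replicate 3. The fit shares its estimate of spread with the siRNA libraries, in which the SD of IGFBP7 was 72.9 CPM and 40.8 CPM. In a fit of the 6 upCIN85 and Mock libraries alone the SE was 0.12 and the adjusted P 1.14e-05 (edgeR). IGFBP7 passed in 11 of 16 alternatives, within a range of 8.34e-28 to 0.194.

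POLR2B, whose last exon lies inside that of IGFBP7 on the opposite strand, also fell. It was at 362 CPM, 352 CPM and 359 CPM in Mock and at 293 CPM, 238 CPM and 233 CPM in upCIN85, without overlap, with a log2FC of -0.49 (SE 0.11, adjusted P = 0.0417, edgeR). With single libraries left out its adjusted P lay between 0.0311 and 0.205. In CPM both genes were lower in upCIN85, and the part of the shared 3′ bases in either result was not tested. Over the siRNA libraries POLR2B lay between 296 CPM and 377 CPM, a narrow range beside that of IGFBP7 there, 53.9 CPM to 195 CPM.

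IGFBP2 was at 146 CPM, 173 CPM and 132 CPM in Mock replicates 1, 2 and 3, and at 90.2 CPM, 92.0 CPM and 83.6 CPM in the upCIN85 replicates. The groups did not overlap, and the upCIN85 libraries lay close together. The means were 150.2 ± 20.7 CPM and 88.6 ± 4.41 CPM, a ratio of 1.70, with a log2FC of -0.76 (SE 0.19, 95% confidence interval -1.17 to -0.35). The unadjusted P was 0.00104 and the adjusted P 0.0599 (edgeR), so IGFBP2 missed the threshold of 0.05 here. The study, which used DESeq2, lists IGFBP2 among its genes that were lower in upCIN85 than in Mock. In the fits made here IGFBP2 passed in 7 of 16 alternatives. Among these were the fit with the replicate block on the siRNA libraries (SE 0.13, adjusted P = 0.00270, edgeR), DESeq2 on 12 libraries (adjusted P = 0.0109) and the fit of the 6 upCIN85 and Mock libraries (adjusted P = 0.00586), within a range of 3.68e-07 to 1. It passed in none of the 6 fits without a single library.

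The other tested members did not pass in upCIN85 vs. Mock. IGFBP4 was at 40.6 CPM, 39.6 CPM and 31.9 CPM in Mock and at 40.9 CPM, 33.7 CPM and 37.4 CPM in upCIN85. The groups covered the same range, and the log2FC was -0.0019, with a 95% confidence interval of -0.28 to 0.28 (adjusted P = 0.996, edgeR). IGFBP6, which prefers IGF2 to IGF1, was at 31.6 CPM, 23.3 CPM and 16.8 CPM in Mock and at 33.6 CPM, 24.8 CPM and 34.5 CPM in upCIN85. Its groups overlapped, with a log2FC of 0.38 (95% confidence interval -0.14 to 0.89, adjusted P = 0.515, edgeR). IGFBP3, the main carrier of IGFs in blood, was counted at 39 to 56 reads in these 6 libraries. It was at 8.84 CPM, 9.17 CPM and 9.82 CPM in Mock and at 8.39 CPM, 6.37 CPM and 7.48 CPM in upCIN85. Its groups did not overlap, yet the log2FC was only -0.32 (95% confidence interval -0.84 to 0.20, adjusted P = 0.59, edgeR).

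IGFBP5, a member known for binding to bone matrix, was close to the floor of detection and did not pass the filter on low counts. It had 5, 4 and 3 counts in Mock, 11, 5 and 17 counts in upCIN85, 5, 10 and 1 counts in siNeg and 3, 1 and 3 counts in siCIN85. The counts overlapped between the groups of each comparison, upCIN85 with Mock, siCIN85 with siNeg and siNeg with Mock. No fold is given. Some alternative settings kept IGFBP5 for testing, with no filter among them, and none called it in any comparison (adjusted P from 0.111, edgeR). IGFBP1, a relative that was not among the 6 genes, had 3 to 18 counts per library, and IGFBPL1 had 7 to 24 counts.

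The summed level of the 6 genes was 329.8 CPM, 362 CPM and 311 CPM in Mock and 215 CPM, 193 CPM and 200.2 CPM in upCIN85. The sums did not overlap, and IGFBP2 and IGFBP7 made up most of the gap. Within the sum, the share of IGFBP7 was 33.8 ± 4.17% in Mock and 18.1 ± 0.80% in upCIN85. That of IGFBP4 was 11.2 ± 1.04% and 18.4 ± 0.848%, and that of IGFBP6 7.15 ± 2.17% and 15.2 ± 2.22%, while IGFBP2 held 44.8 ± 2.7% and 43.8 ± 3.31%. By the means, IGFBP7 was thus no longer second in order in upCIN85, though in upCIN85 replicate 2 it was above IGFBP4. Its libraries there, 34.3 to 40.0 CPM, overlapped those of IGFBP4, 33.7 to 40.9 CPM.

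**Figure D2:**
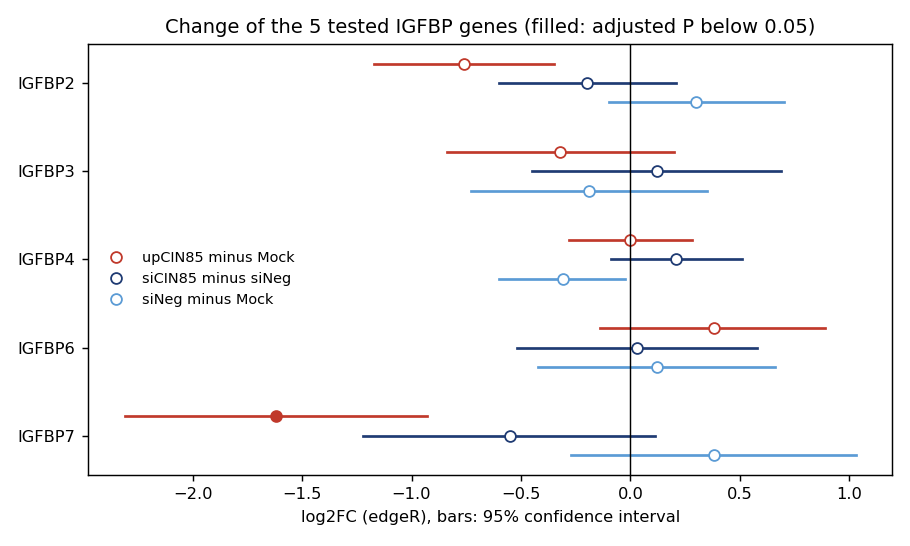
log2FC from edgeR (horizontal axis) of the 5 tested IGFBP genes in 3 comparisons, with bars for the 95% confidence interval and filled points for an adjusted P below 0.05. IGFBP7 in upCIN85 vs. Mock, at -1.62, is the 1 filled point, and the interval of IGFBP2 in that comparison, -1.17 to -0.35, also leaves out 0.

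The second comparison asked how the members differed after the siRNAs against CIN85. With edgeR no member passed, against 1.04% of all genes tested (131 of 12542), and no member had an unadjusted P below 0.05, against 15.7% of all genes tested. With DESeq2 on 12 libraries no member passed either. The median log2FC of the 5 members was 0.03, and that of all genes tested was -0.0052. Deviations from group means correlated between siNeg and siCIN85 libraries of the same number (r = 0.269 to 0.446). The fits behind the calls above did not use these shared numbers. A fit with the replicate number as a block was also made, and in it IGFBP7 passed.

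IGFBP7 was at 195 CPM, 182 CPM and 62.5 CPM in siNeg replicates 1, 2 and 3, and at 132 CPM, 113 CPM and 53.9 CPM in the siCIN85 replicates. Each siCIN85 library was below the siNeg library of the same number, with log2 ratios of -0.56, -0.68 and -0.21, but the groups overlapped because replicate 3 was low in both. The log2FC was -0.55 (SE 0.31, 95% confidence interval -1.22 to 0.11, adjusted P = 0.405, edgeR). With that block it was -0.50 (SE 0.12, adjusted P = 0.0240, edgeR), a setting that called 3.42% of all genes tested (1.89% in the lower direction), within a range of 0.00261 to 1 over 16 alternatives. Without the siNeg and siCIN85 libraries of replicate 3, a setting chosen after seeing the data, it was -0.62 (adjusted P = 0.0831, edgeR). The log2FC moved to -0.92 without siNeg replicate 3 and to -0.26 without siCIN85 replicate 3, and to -0.30 without siNeg replicate 1.

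IGFBP2 followed the same libraries. It was at 215 CPM, 224 CPM and 117 CPM in siNeg and at 197 CPM, 155 CPM and 132 CPM in siCIN85, with overlap. The same-numbered log2 ratios were -0.13, -0.53 and 0.18, and the log2FC was -0.20 (95% confidence interval -0.60 to 0.21, adjusted P = 0.658, edgeR). IGFBP4 was at 32.5 CPM, 30.1 CPM and 27.6 CPM in siNeg and at 36.2 CPM, 34.7 CPM and 33.3 CPM in siCIN85. Its siCIN85 libraries all lay above its siNeg libraries, as was the case in one or the other direction for 20.2% of all genes tested, and its same-numbered log2 ratios were 0.15, 0.21 and 0.27. Its log2FC of 0.21 did not pass (95% confidence interval -0.09 to 0.51, adjusted P = 0.497, edgeR).

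IGFBP3 and IGFBP6 gave no steady direction in the knockdown. IGFBP3 was at 9.75 CPM, 5.13 CPM and 9.64 CPM in siNeg and at 7.77 CPM, 11.9 CPM and 7.13 CPM in siCIN85, from 21 to 41 counts per library. Its log2FC was 0.12 (95% confidence interval -0.45 to 0.69, adjusted P = 0.868, edgeR). IGFBP6 was at 26.7 CPM, 28.3 CPM and 22.4 CPM in siNeg and at 25.7 CPM, 15.9 CPM and 37.2 CPM in siCIN85. Its siCIN85 libraries spread more widely than those of any other group, and its log2FC was 0.03 (95% confidence interval -0.52 to 0.58, adjusted P = 0.971, edgeR). Both log2FC values changed sign when single libraries were left out.

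**Figure D3:**
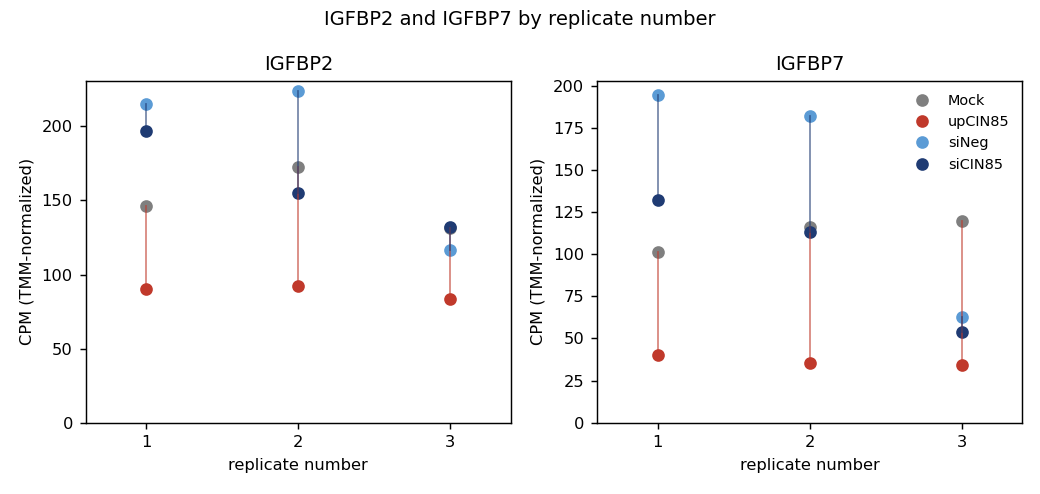
CPM (TMM-normalized, vertical axis from 0) of IGFBP2 and IGFBP7 by replicate number, 1 point per library, with a line between the 2 libraries of a comparison that carry the same number. For IGFBP7 the siNeg and siCIN85 points of replicate 3, at 62.5 and 53.9, sit far below those of replicates 1 and 2, while the Mock points stay between 101 and 119.8.

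Within the siRNA groups, IGFBP2 and IGFBP7 differed by replicate number. In an F test of the replicate number within the siRNA groups, added after seeing the data, 230 of the 12542 genes passed (1.83%), and IGFBP7 (adjusted P = 2.55e-05, edgeR) and IGFBP2 (adjusted P = 0.0365, edgeR) were among them. IGFBP3, IGFBP4 and IGFBP6 did not pass. In the same test of Mock and upCIN85, 3 genes passed (0.0239%) and no member did. The share of counts on mitochondrial genes was 7.53% in siNeg replicate 3, the highest of the 12 libraries, and 5.45% in siCIN85 replicate 3, against 3.52 to 6.74% in the other libraries. The part of this share in the result was not tested.

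The control groups of the 2 experiments, siNeg and Mock, differ in vector, selection, siRNA treatment and experiment, which cannot be told apart. No member passed in this comparison with edgeR or with DESeq2, against 0.526% of all genes tested (66 of 12542). At an unadjusted P below 0.05, met by 12.4% of all genes tested, there was 1 member, IGFBP4, with a log2FC of -0.31 (95% confidence interval -0.60 to -0.024, adjusted P = 0.361, edgeR). The log2FC was 0.38 for IGFBP7 (95% confidence interval -0.27 to 1.03, adjusted P = 0.655, edgeR) and 0.30 for IGFBP2 (95% confidence interval -0.10 to 0.70, adjusted P = 0.547, edgeR). Without replicate 3 of both siRNA groups, that of IGFBP7 was 0.74 (adjusted P = 0.00925, edgeR), within a range of 0.00925 to 1 over 14 alternatives.

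By the means of the groups, IGFBP7 ran from 146 ± 72.9 CPM in siNeg through 112 ± 9.76 CPM in Mock and 99.8 ± 40.8 CPM in siCIN85 to 36.7 ± 2.99 CPM in upCIN85, and the first 3 groups overlapped. IGFBP2 ran from 185 ± 59.4 CPM in siNeg through 161 ± 32.8 CPM in siCIN85 and 150.2 ± 20.7 CPM in Mock to 88.6 ± 4.41 CPM in upCIN85, with the same overlap. The upCIN85 group was the lowest for both. For IGFBP4 all 4 means lay between 30.0 and 37.4 CPM, for IGFBP6 between 23.9 and 31.0 CPM, and for IGFBP3 between 7.42 and 9.28 CPM.

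The change with the plasmid and the change with the siRNAs were also compared directly, in 1 contrast. No member passed with edgeR or with DESeq2, against 0.973% of all genes tested (122 of 12542), and 1, IGFBP7, had an unadjusted P below 0.05, against 14.5% of all genes tested. The difference was -1.06 for IGFBP7 (95% confidence interval -2.01 to -0.12, adjusted P = 0.281, edgeR) and -0.56 for IGFBP2 (95% confidence interval -1.14 to 0.011, adjusted P = 0.356, edgeR). With the block on the siRNA libraries, that of IGFBP7 was -1.12 (adjusted P = 0.00145, edgeR), within a range of 1.15e-05 to 1.00 over 20 alternatives. Both separate log2FC values of IGFBP7 were negative, -1.62 and -0.55.

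The rest of the IGF system was described by 8 lists that follow roles, with 67 genes, of which 60 were in the table and 46 were tested. In upCIN85 vs. Mock no gene of these lists passed with edgeR in either direction, 11 had an unadjusted P below 0.05, and DESeq2 on 12 libraries called 3 (CRIM1, ESM1 and INSR). Over all genes tested, 1.23% passed with edgeR and 14.5% had an unadjusted P below 0.05. These shares are not those of DESeq2, which called more genes than edgeR in both comparisons, as given under the dependence on processing. The median log2FC of the listed genes was 0.024. In siCIN85 vs. siNeg 2 passed with edgeR, ESM1 and MMP1, both higher, against 1.04% of all genes tested, and the median was -0.017. DESeq2 on 12 libraries called ESM1 and IGF2BP1 here and not MMP1. Medians of all genes tested were 0.0072 and -0.0052.

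Of the 4 genes listed as ligands and carrier subunit, IGF2 was the 1 in the count table, with at most 1 count in any library. No value of IGF1 is given here. The receptors were well counted. IGF1R was at 98.0 ± 8.08 CPM in Mock, 90.7 ± 13.5 CPM in upCIN85, 101 ± 8.42 CPM in siNeg and 80.3 ± 13.2 CPM in siCIN85, with log2FC values of -0.11 (adjusted P = 0.758) and -0.34 (adjusted P = 0.244, edgeR) in the plasmid and siRNA comparisons. IGF2R, which clears IGF2 from the cell surface, was at 154.5 ± 20.2 CPM in Mock and 128 ± 4.97 CPM in upCIN85 (log2FC -0.27, adjusted P = 0.333, edgeR). INSR, the insulin receptor, was at 3.95 CPM, 8.83 CPM and 5.26 CPM in Mock and at 9.97 CPM, 11.6 CPM and 18.4 CPM in upCIN85. Its groups did not overlap, and its log2FC of 1.13 (SE 0.30, adjusted P = 0.0679, edgeR) missed the threshold.

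The receptor substrate IRS1 was at 29.3 ± 2.91 CPM in Mock and 42.1 ± 6.02 CPM in upCIN85 without overlap (log2FC 0.52, adjusted P = 0.0774, edgeR), and IRS2 had a log2FC of 0.032 (adjusted P = 0.931). In siCIN85 vs. siNeg, IRS1 was at -0.068 (adjusted P = 0.870) and IRS2 at 0.36 (adjusted P = 0.147). Of the 7 tested substrates and adaptors and the 10 tested PI3K and AKT enzymes none passed in either comparison, and their log2FC values lay between -0.45 and 0.52.

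PAPPA, the protease that cuts IGFBP4 and so frees bound IGF, was at 6.21 CPM, 11.5 CPM and 7.37 CPM in Mock and at 4.02 CPM, 4.58 CPM and 4.93 CPM in upCIN85. Its groups did not overlap, and its log2FC of -0.89 (SE 0.26, adjusted P = 0.0893, edgeR) missed the threshold. Its inhibitors are the stanniocalcins. STC2 was at 652 ± 27.3 CPM in Mock and 485.5 ± 158 CPM in upCIN85 (log2FC -0.42, adjusted P = 0.268), and STC1 at 2.72 ± 0.858 CPM and 4.54 ± 1.1 CPM (log2FC 0.73, adjusted P = 0.459). In siCIN85 vs. siNeg the log2FC was -0.34 for PAPPA (adjusted P = 0.542), 0.13 for STC2 (adjusted P = 0.763) and 1.03 for STC1 (adjusted P = 0.181, edgeR). MMP1, a collagenase that can also cut IGFBPs, rose from 10.5 CPM, 4.15 CPM and 4.95 CPM in siNeg to 33.7 CPM, 19.7 CPM and 30.6 CPM in siCIN85 (log2FC 2.10, SE 0.45, adjusted P = 0.0321, edgeR).

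The list of other genes with an IGFBP domain had 7 tested genes. ESM1, a secreted proteoglycan of endothelial cells, rose from 13.0 CPM, 13.9 CPM and 7.55 CPM in siNeg to 45.4 CPM, 21.4 CPM and 31.7 CPM in siCIN85 (log2FC 1.52, SE 0.31, adjusted P = 0.0264, edgeR). In upCIN85 it was at 1, 10 and 2 counts, against 16 to 20 in Mock (log2FC -2.11, adjusted P = 0.0723). The IGF2 mRNA binding proteins, which share a name but bind RNA rather than IGFs, did not pass with edgeR, and IGF2BP1 was called by DESeq2 in siCIN85 vs. siNeg. Their log2FC values in upCIN85 vs. Mock lay between -0.04 and 0.016, and in siCIN85 vs. siNeg IGF2BP1 had 0.54 (adjusted P = 0.0636), IGF2BP2 0.18 (adjusted P = 0.450) and IGF2BP3 0.12 (adjusted P = 0.685).

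**Figure D4:**
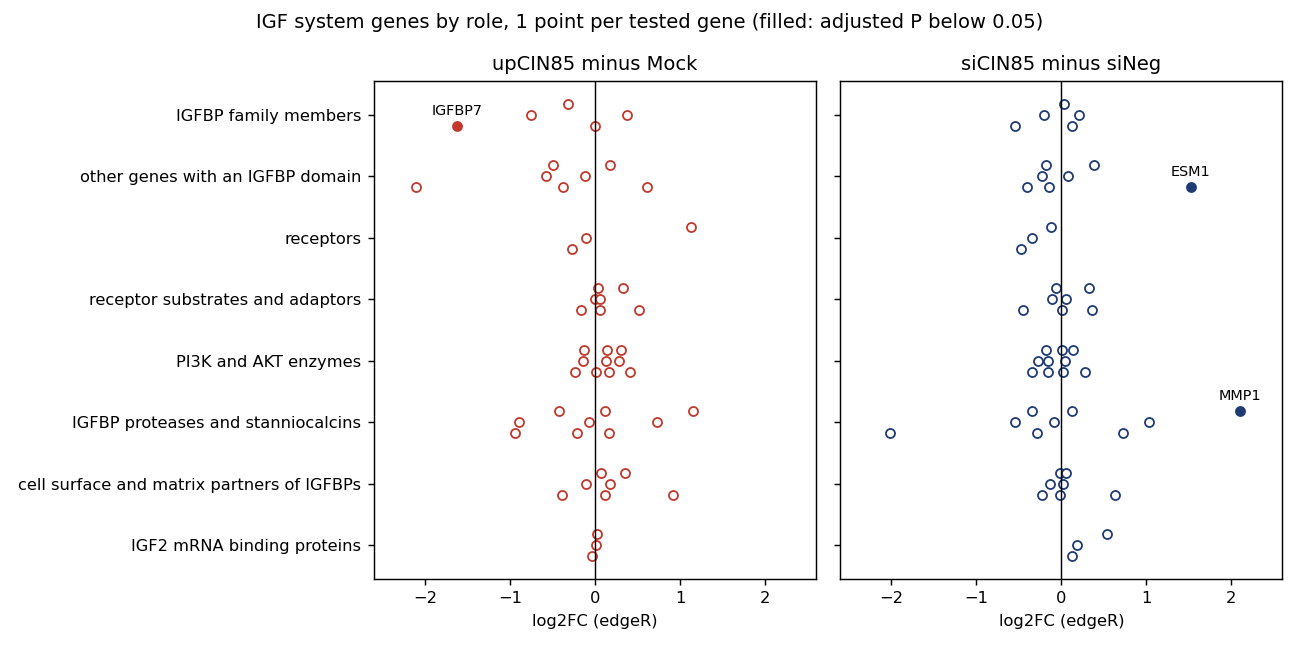
log2FC from edgeR (horizontal axis) of every tested gene of the IGF system, in rows by role, for upCIN85 minus Mock (left) and siCIN85 minus siNeg (right), with filled points for an adjusted P below 0.05 and vertical offsets within a row only to separate points. IGFBP7 at -1.62 is the 1 filled point on the left, and ESM1 at 1.52 and MMP1 at 2.10 are the filled points on the right.

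Some marker genes passed between upCIN85 and Mock as well. The summed CPM of the 7 bone and mesenchymal markers was 1792 to 2259 in Mock, 1908 to 2575 in upCIN85, 1728 to 2095 in siNeg and 1206 to 1612 in siCIN85. Among them ALPL, an alkaline phosphatase of mineralizing cells (log2FC 1.76, adjusted P = 0.0340), and COL1A2, a chain of type I collagen (log2FC 1.35, adjusted P = 0.0439, edgeR), rose in upCIN85, where 0.439% of all genes tested were called higher. The summed CPM of the 8 markers of other cell types, nearly all from EPCAM and CDH1, was 55.1 to 60.5 in Mock, 73.6 to 90.3 in upCIN85, 51.6 to 66.4 in siNeg and 46.6 to 62.8 in siCIN85. The part of these lists in the IGFBP results was not tested.

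The nearest tested gene on each side of each member was also read. None of these neighbours passed with edgeR in upCIN85 vs. Mock, siCIN85 vs. siNeg or siNeg vs. Mock, other than POLR2B, which overlaps IGFBP7 and was not counted among them. RPL37A, a ribosomal protein gene 53.6 kb before IGFBP2, had a log2FC of 0.14 in upCIN85 vs. Mock (adjusted P = 0.542), and TNS1, 1135 kb after it, -0.78 (adjusted P = 0.379). NOA1, 52.0 kb below IGFBP7, had -0.45 (adjusted P = 0.188). TOP2A, 25.5 kb below IGFBP4, had -0.03 (adjusted P = 0.922).

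Over the 12 libraries, the log2 CPM of IGFBP2 and IGFBP7 moved together (Pearson's r = 0.95), and for the other pairs of tested members r lay between -0.57 (IGFBP3 with IGFBP6) and 0.34 (IGFBP4 with IGFBP6). This is a description over libraries that share groups and replicate numbers. For IGFBP7 the 3 genes with the most similar pattern were LHX2 (r = 0.975), FAR2 (r = 0.967) and SLC27A2 (r = 0.964). For IGFBP2 they were YWHAB (r = 0.954), IGFBP7 (r = 0.951) and FBLN1 (r = 0.948). LHX2, a homeobox transcription factor, was at 20.7 CPM in Mock, 10.3 CPM in upCIN85, 21.7 CPM in siNeg and 18.3 CPM in siCIN85 on average. FBLN1, a matrix protein, was at 79.3 CPM, 53.1 CPM, 86.1 CPM and 81.5 CPM in the same order. For the other members the likeness was lower, with r of at most 0.863 for IGFBP3 (NBEAL2, then CROT and RPL26P30), 0.886 for IGFBP4 (ZNF580, then CREB3L2 and TMEM242) and 0.865 for IGFBP6 (FZD5, then UBXN7 and KIAA1217).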

How the data were processed

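RNA of 12 HOS libraries in 4 groups was profiled, with group and replicate number taken from the labels. The authors prepared libraries with QuantSeq 3′ FWD and a module that adds unique molecular identifiers (UMIs), sequenced them as single-end reads on a NextSeq 500, and deposited raw counts per gene. The submitters' processing notes name FastQC, cutadapt 4.3, STAR 2.7.3a, Picard 2.25.6, MultiQC 1.10.1, featureCounts, Subread 2.0 and GRCh38. The annotation release, the strand setting of the counting and any collapsing of UMIs are not given in the sources used here. If reads were not collapsed, PCR copies are part of each count. Gene names come from GENCODE release 29, in which 95 identifiers had no match. No column of per-sample values was left unused.

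In R 4.3.3 with edgeR 4.0.16, genes were kept by filterByExpr (minimum count 10, minimum total 15), scaled by TMM and fitted by quasi-likelihood with a mean per group on all 12 libraries (8 residual degrees of freedom). Tests were two-sided, with Benjamini-Hochberg adjustment over the 12542 genes and a threshold of 0.05. The SE was taken from the log2FC and the F statistic, and 95% intervals use the t distribution. DESeq2 1.42.0, the tool of the study, was an alternative. Alternatives also covered the 6 libraries of a comparison, RLE scaling, other filters on low counts, the replicate block, glmTreat against a fold change of 1.5, and each library left out. Leaving out replicate 3 of both siRNA groups and the F test of the replicate number were added after seeing the data. The fits were tested on simulated data that held no replicate effect and no change in the siRNA groups. That simulation therefore does not bear on the replicate differences of the siRNA libraries. No library was found deposited more than once.

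Deviations from group means correlated across genes between same-numbered siNeg and siCIN85 libraries (r = 0.353, 0.269 and 0.446), so the shared numbers of the labels were taken to pair them. For Mock and upCIN85 they were 0.326, 0.227 and 0.0989, a range that overlapped the first, and the numbers were not taken to pair. No limit on r is given for this choice. The main fit had no block in either experiment, so it left out the pairing of the siRNA libraries. With the block in both experiments, IGFBP2 passed in upCIN85 vs. Mock (adjusted P = 1.69e-04, edgeR). In that fit IGFBP7 passed in siCIN85 vs. siNeg (adjusted P = 0.00674, edgeR). The block also raised the number of genes called in both comparisons.

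The members, the lists of IGF system genes and markers and the tests were chosen with earlier results of these data known. The genes named are the members, SH3KBP1, fixed genes of the IGF system, genes of the lists that passed in upCIN85 vs. Mock or siCIN85 vs. siNeg, the 3 genes most similar to each member by Pearson's r of log2 CPM, and the nearest tested neighbours. POLR2B and the genes called by DESeq2 alone were named after their values were seen. Promoter sequences are those of RefSeq on GRCh38.p14.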

Additional observations from a re-analysis of the deposited data

Results flagged for a closer look

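For 3 genes of the lists the change with the CIN85 plasmid and the change with the siRNAs differed past the test of the difference itself (edgeR). They were 1 of the 46 tested genes of the IGF system and 2 of the 7 tested bone and mesenchymal markers. Over all genes tested the share was 0.973% (122 of 12542). The difference in log2FC was -3.63 for ESM1 (SE 0.64, adjusted P = 0.0121), with -2.11 in upCIN85 vs. Mock and 1.52 in siCIN85 vs. siNeg. It was 2.61 for COL1A2 (SE 0.48, adjusted P = 0.0151), with 1.35 and -1.26, and 1.27 for COL1A1 (SE 0.28, adjusted P = 0.0381), with 0.56 and -0.71. None of the 5 tested IGFBP genes passed this test in the fit that gave these values. IGFBP7 passed it in some alternatives without a replicate block, namely with no filter on low counts and without replicate 3 of both siRNA groups (edgeR). With the block on the siRNA libraries IGFBP7 passed (-1.12, adjusted P = 0.00145, edgeR), and with the block in both experiments IGFBP7 (-1.11, adjusted P = 2.25e-04) and IGFBP2 (-0.59, adjusted P = 0.0231, edgeR) did. ESM1 in upCIN85 rests on 1 to 10 counts per library.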

How the results depend on the processing

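Of 330 single values (5 members, 4 contrasts) recomputed under an alternative, 296 kept their direction and their side of the threshold, 16 came to pass, 5 no longer passed and 13 changed sign. Except where stated, the cause of a move was not tested. In upCIN85 vs. Mock (154 genes called, 1 of them a member) the number of genes was 281 in the fit of the 6 libraries, 637 with no filter, 1035 with the replicate block in both experiments, 545 with the block in the knockdown only, 311 with DESeq2 on 12 libraries and 371 on 6, and 308 without replicate 3 of both siRNA groups. Each of these settings called 2 members, IGFBP7 and IGFBP2. With glmTreat it was 13 genes and 0 members, and with single libraries left out 25 to 260 genes and 0 to 1 members.

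In siCIN85 vs. siNeg (131 genes, 0 members) the number was 50 in the fit of the 6 libraries, 617 with no filter, 968 with the replicate block in both experiments, 429 with the block in the knockdown only, 298 with DESeq2 on 12 libraries, 1 with glmTreat, 13 without replicate 3 of both groups and 9 to 362 with single libraries left out. IGFBP7 was the 1 member called with no filter and with either block. In siNeg vs. Mock (66 genes, 0 members) it was 376 with no filter, 183 with DESeq2 on 12 libraries and 181 on 6, 4 with glmTreat, 164 genes and 1 member (IGFBP7) without replicate 3 of both siRNA groups, and 7 to 134 with single libraries left out. For the difference between the changes (122 genes, 0 members) it was 554 with no filter, 918 with the block in both experiments (2 members, IGFBP2 and IGFBP7), 368 with the block in the knockdown (1 member, IGFBP7), 269 with DESeq2, 15 with glmTreat, 76 without replicate 3 of both siRNA groups, and 33 to 341 with single libraries left out. Each of the settings with no filter and without replicate 3 called IGFBP7 here.

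Changes of sign were met only in values between -0.19 and 0.12 that did not pass. In upCIN85 vs. Mock the log2FC of IGFBP4 was 0.0087 with at least 10 counts in every library, and -0.10 to 0.068 with single libraries left out. In siCIN85 vs. siNeg that of IGFBP6 was -0.0058 with the block in both experiments, -0.015 with the block in the knockdown, -0.39 without replicate 3 of both groups and -0.31 to 0.27 with single libraries left out, and that of IGFBP3 was -0.14 to 0.27. In siNeg vs. Mock the ranges with single libraries left out were -0.34 to 0.069 for IGFBP3 and -0.083 to 0.37 for IGFBP6. IGFBP5, at 1 to 17 counts per library, was not called under any alternative that tested it, and its depth allows only wide intervals. RLE scaling changed no call of a member.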
